A study of Mus musculus with 12 samples.

Results

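The genes described here make, clear, carry or sense retinoic acid. They were chosen by name from the gene column of the deposited table and number 10 of its 24736 genes: Rdh10, Dhrs3, Aldh1a2, Cyp26a1, Cyp26b1, Crabp1, Crabp2, Rara, Rarb and Rarg. Mouse embryonic stem cells (ESCs) were differentiated for 72 h and the messenger RNA of 12 cultures was sequenced, 3 biological replicates in each of 4 groups. Every culture received bFGF at 10 ng/ml and LGK974 at 5 µM, a porcupine inhibitor that blocks the secretion of WNT ligands. No retinoid was named among the added factors, and the medium held the supplement B27, which is sold with and without vitamin A. Which of these was used is not given in the sources used here.

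EpiLC (epiblast-like cells) and CEpiLC (caudal epiblast-like cells) were wild type, from a male ESC line with the doxycycline-responsive activator rtTA at the Rosa26 locus. EpiLC received nothing further. CEpiLC were exposed from day 2 to day 3 to CHIR99021, a GSK3 inhibitor that activates WNT signalling. SOX2-OFF and SOX2-ON received CHIR99021 over the same period and came from the SOX2 TetON line (Sox2-/-), which was derived from that wild-type line by placing a doxycycline-inducible Sox2 transgene at the Hprt locus, ablating endogenous Sox2 and growing from clonal density. SOX2-ON cultures kept doxycycline at 1 µg/ml and SOX2-OFF cultures had it withdrawn. These 2 groups therefore compare cultures of a single line, in which doxycycline differs along with SOX2. Between either of them and EpiLC or CEpiLC the line differs too, and TetON cells that saw no CHIR99021 were not analysed here. All ESCs had been propagated on fibroblast feeders, which were removed by plating before differentiation.

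Retinoic acid is a small diffusible derivative of vitamin A. Rdh10 oxidises retinol to retinal, Dhrs3 reduces retinal back to retinol, and Aldh1a2 oxidises retinal to retinoic acid. The CYP26 enzymes hydroxylate retinoic acid and so clear it, the CRABP proteins carry it through the cell, and the RAR receptors bind it in the nucleus and act on transcription as dimers with an RXR receptor. At the caudal end of the mouse embryo, Aldh1a2 is known from paraxial mesoderm and Cyp26a1 from the tail bud.

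Library totals ran from 10408252 to 27337740 expected counts, a count that RSEM estimates and that need not be whole. Levels are given in TPM, the abundance of a transcript scaled by its length and by the library's total. Sox2, on which the design turns, read 119 to 171 TPM in EpiLC and 173 to 215 in SOX2-ON, against 7.78 to 13.7 in CEpiLC and 12.3 to 21.2 in SOX2-OFF. These reads do not tell endogenous from transgene transcripts. Epiblast markers (6 of 6 detected in every group) summed to 2590 to 3060 TPM in EpiLC and 1340 to 1550 in SOX2-ON. They summed to 955 to 1110 TPM in SOX2-OFF and 841 to 1180 in CEpiLC. Pou5f1 averaged more in SOX2-ON (1070 TPM) than in EpiLC (887), while the rest were highest in EpiLC. Caudal epiblast and streak markers (7 genes) summed to 1.52 to 2.54 TPM in EpiLC. Their sum was highest in CEpiLC (1410 to 1610), followed by SOX2-OFF (968 to 983) and SOX2-ON (247 to 295). T was the largest part of it, at 711 TPM on average in CEpiLC and 809 in SOX2-OFF. Cdx2 and Cdx4 averaged less in SOX2-OFF (32.4 and 3.41 TPM) than in SOX2-ON (65.6 and 9.91), while the rest averaged more. The libraries of a group were not alike in every respect. In CEpiLC the sum of 6 paraxial mesoderm markers read 122, 212 and 631 TPM in replicates 1, 2 and 3, and replicate 3 was also the shallowest of the 12 libraries. In SOX2-OFF that sum read 140, 129 and 249 TPM, against 8.49 to 16.2 in EpiLC and 16.7 to 17.2 in SOX2-ON, where Msgn1 and Tbx6, which define presomitic mesoderm, stood at or below 1.49 TPM. The 9 extraembryonic endoderm markers summed to 274 to 320 TPM in SOX2-OFF and 116 to 326 in SOX2-ON, against 6.24 to 13.1 in the wild-type groups, with Afp and Apoa1 near 0 in all libraries. The 5 neural markers summed to at most 10.2 TPM in any library. The 8 fibroblast markers summed to 54.7 to 84.9 TPM in CEpiLC, 39.1 to 56.6 in EpiLC and 19.6 to 43.3 in the TetON groups. Thy1 was the largest part in both wild-type groups, averaging 42.1 TPM in CEpiLC and 28 in EpiLC, against 8.31 (SOX2-OFF) and 9.34 (SOX2-ON). Col1a1 and Col3a1 also averaged less in both TetON groups than in either wild-type group. Dcn went the other way (3.11 and 3.54 TPM against 1.95 in EpiLC and 1.4 in CEpiLC), as did Lum, at 1.36 TPM or less. Col1a2, Postn and Twist2 kept neither order. The share of feeder cells was not tested.

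**Figure D1:**
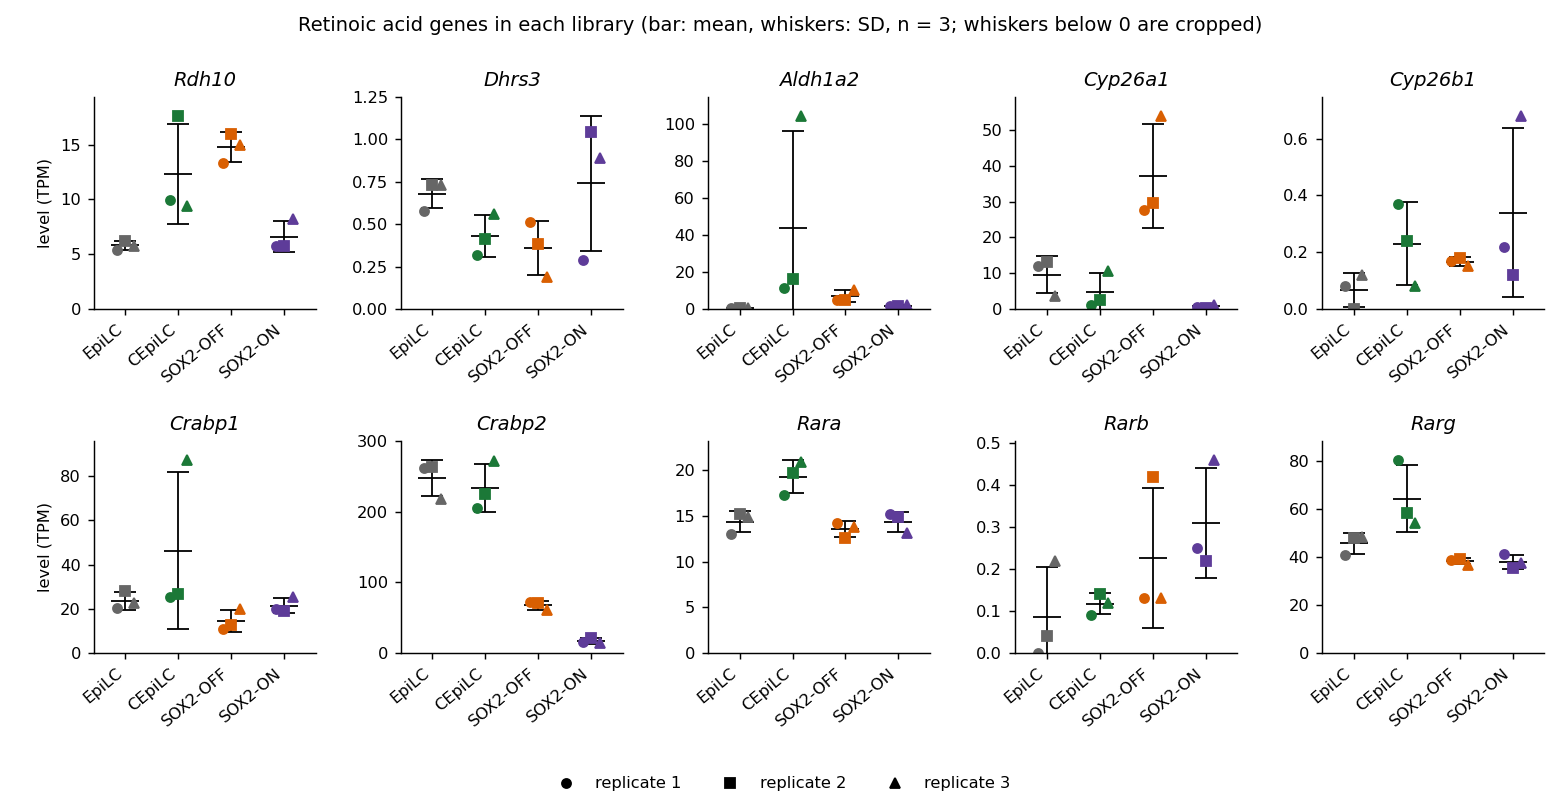
Level of the 10 genes in TPM (vertical axis, linear from 0) in each of the 12 libraries, by group (horizontal axis). Points are libraries with the symbol of their replicate number, bars the mean and whiskers the SD over 3 replicates. Cyp26a1 stands highest in SOX2-OFF (27.7 to 54.0 TPM), Crabp2 steps down from the wild-type groups to SOX2-OFF and SOX2-ON, and 1 CEpiLC library carries the highest Aldh1a2 value.

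Levels differed widely between these genes. By TPM, which allows genes to be compared, Crabp2 was the highest of the 10 in EpiLC, at 247 ± 25.8 TPM (SD, n = 3), followed by Rarg at 45.7 ± 4.31, Crabp1 at 23.7 ± 4.12 and Rara at 14.4 ± 1.15. Cyp26a1 (9.6 ± 5.16 TPM) and Rdh10 (5.8 ± 0.418) were intermediate. Dhrs3, Aldh1a2, Rarb and Cyp26b1 each had a mean of 0.68 TPM or less in EpiLC. Rarb did not have enough counts to pass the filter on low counts (0 to 12 counts in a library), so 9 of the 10 genes were tested among 14196 genes.

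Which of these genes differed was asked for each pair of groups with edgeR's quasi-likelihood test, with p adjusted by Benjamini-Hochberg over all 14196 genes and 0.05 as the highest adjusted p of a call. From EpiLC to CEpiLC, the one comparison in which CHIR99021 alone differs, 4 of 9 were called higher (Rdh10, Aldh1a2, Rara and Rarg) and 0 lower, against 22.1% of all genes tested called higher and 20.1% called lower. SOX2-OFF against CEpiLC gave 1 higher (Cyp26a1) and 5 lower (Aldh1a2, Crabp1, Crabp2, Rara and Rarg), against 23.6% and 24.9% of all genes. In SOX2-ON against CEpiLC, 7 of 9 were called lower and 0 higher, where 28.6% of all genes were called lower and 27.9% higher. The 2 that were not called there were Dhrs3 and Cyp26b1, the members with the fewest counts among those tested. SOX2-ON against SOX2-OFF gave 3 lower (Cyp26a1, Rdh10 and Crabp2) and 0 higher, against 14.1% of all genes called lower and 14.8% higher. Against EpiLC, SOX2-OFF had 3 higher and 1 lower (31.5% and 30.6% of all genes), and SOX2-ON had 1 higher and 3 lower (30.7% and 29.1%). Comparisons that name the same group share its libraries. The median log2 fold change over all tested genes, which the scaling holds near 0, ran from -0.0129 to 0.0148 over the comparisons. In bulk RNA, fewer cells that express a gene and less RNA per cell cannot be told apart.

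**Figure D2:**
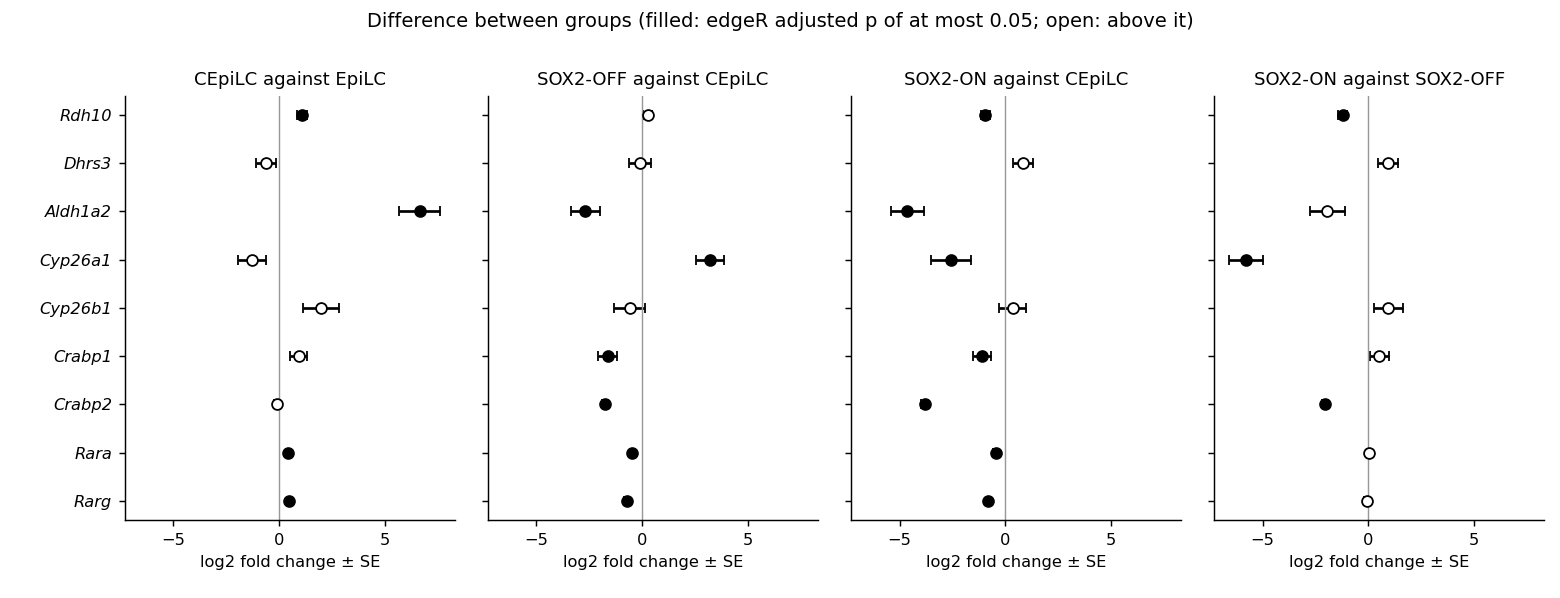
Log2 fold change with its standard error (horizontal axis) of the 9 genes tested, in 4 comparisons with the first-named group over the second. Filled points passed an edgeR adjusted p of at most 0.05. The 7 filled points of SOX2-ON against CEpiLC all lie left of 0, and Cyp26a1 lies right of 0 in SOX2-OFF against CEpiLC (3.22) and left of 0 in SOX2-ON against SOX2-OFF (-5.78).

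Of the genes of synthesis, Aldh1a2 (chr9:71215789-71296243 in GRCm38.p6, or mm10) had the widest range between groups. It read 0.43, 0.33 and 0.54 TPM in EpiLC and 11.2, 16.3 and 104 TPM in CEpiLC. All CEpiLC values lay above all EpiLC values, and replicate 3 stood far above the other two. The difference was 6.66 on the log2 scale (101-fold, SE 0.96, adjusted p 0.000122 by edgeR), and without CEpiLC replicate 3 it was 5.00 (SE 0.39, adjusted p 8.51e-07 by edgeR). In SOX2-OFF Aldh1a2 read 4.94, 4.98 and 10.5 TPM, below each CEpiLC value. The log2 fold change against CEpiLC was -2.68 (SE 0.68, adjusted p 0.00554 by edgeR), -1.01 without CEpiLC replicate 3 (adjusted p 0.0116 by edgeR), and -1.80 by limma-voom, where it was not called (adjusted p 0.0729). SOX2-ON gave 1.80, 1.46 and 2.07 TPM, below each SOX2-OFF value and above each EpiLC value. It was lower than CEpiLC by a log2 fold change of -4.63 (SE 0.79, adjusted p 0.000242 by edgeR), or -2.97 without CEpiLC replicate 3 (adjusted p 7.53e-06 by edgeR). The steps from SOX2-OFF to SOX2-ON (-1.95, SE 0.83, adjusted p 0.0965 by edgeR) and from EpiLC to SOX2-ON (2.03, SE 1.25, adjusted p 0.177 by edgeR) were not called in the model of 12 libraries, whose estimate of the spread for Aldh1a2 takes in the scatter of CEpiLC. With only the 6 libraries compared they were called (edgeR, adjusted p 0.00204 and 0.000324), as they were by DESeq2 (adjusted p 0.0427 and 0.0294), and over all alternatives the adjusted p reached 0.337 and 0.456. SOX2-OFF exceeded EpiLC by 3.98 (SE 1.06, adjusted p 0.00521 by edgeR), a call that limma-voom did not make (3.79, adjusted p 0.117).

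In CEpiLC and in SOX2-OFF, the library highest in Aldh1a2 was also the highest in paraxial mesoderm markers. The CEpiLC library with 104 TPM of Aldh1a2 was the one with 631 TPM of those markers, and in it Msgn1 read 364 TPM and Tbx6 86.2 TPM. Its sum came mainly from these 2 genes, Dll1 and Aplnr (66.1 TPM). The remaining markers, Meox1 and Tcf15, read 0.69 and 4.02 TPM in it. Tcf15 averaged 3.91 TPM in CEpiLC, less than in EpiLC (5.24) and SOX2-ON (5.96). In SOX2-OFF replicate 3, with 10.5 TPM of Aldh1a2, the marker sum was 249 TPM. By group mean, both Aldh1a2 and the marker sum were highest in CEpiLC, followed by SOX2-OFF, SOX2-ON and EpiLC. Single libraries of different groups did not always keep that order. The marker sum of SOX2-OFF replicate 3 lay above those of CEpiLC replicates 1 and 2 (122 and 212 TPM), whose Aldh1a2 was higher (11.2 and 16.3 TPM). SOX2-OFF replicates 1 and 2 exceeded CEpiLC replicate 1 in markers (140 and 129 TPM) with less Aldh1a2 (4.94 and 4.98 TPM). In SOX2-ON the marker sum (16.7 to 17.2 TPM) was close to that of EpiLC replicate 3 (16.2 TPM) while its Aldh1a2 lay above all EpiLC values. How far the share of mesodermal cells sets the Aldh1a2 level was not tested. Of the genes outside the 10, the patterns most like that of Aldh1a2 over the 12 libraries were those of Dll1, Nrarp and Arid3b, with Pearson's r of log2 CPM of 0.978, 0.974 and 0.972. Dll1, a Notch ligand, is itself 1 of the 6 mesoderm markers and read 110 TPM in CEpiLC replicate 3. These r describe 12 libraries of 4 groups and were picked as the highest of 14196 genes.

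**Figure D3:**
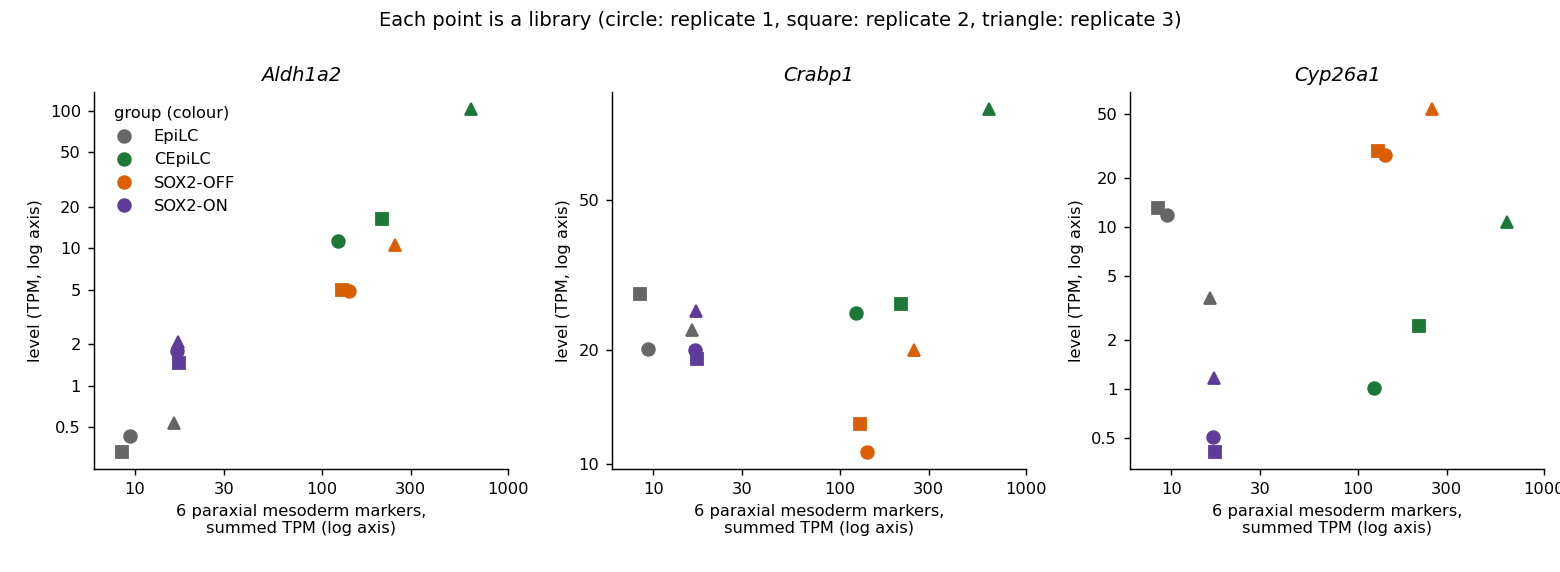
Level of Aldh1a2, Crabp1 and Cyp26a1 (vertical axes, TPM on a log scale) against the summed TPM of 6 paraxial mesoderm markers (horizontal axes, log scale), 1 point for each of the 12 libraries. CEpiLC replicate 3, at 631 TPM of markers, has the highest Aldh1a2 (104 TPM) and Crabp1 (87.4 TPM), while the highest Cyp26a1 values are those of SOX2-OFF.

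Rdh10 (chr1:16105882-16132550), the enzyme of the step before, was low in the pair of groups with high Sox2 RNA and higher in the other pair. It read 5.41, 6.24 and 5.74 TPM in EpiLC and 5.79, 5.76 and 8.21 TPM in SOX2-ON. In CEpiLC it read 9.96, 17.6 and 9.40 TPM, and in SOX2-OFF 13.3, 16 and 14.9 TPM, so that every value of CEpiLC and SOX2-OFF lay above every value of EpiLC and SOX2-ON. The rise from EpiLC to CEpiLC was 2.14-fold (log2 fold change 1.1, SE 0.22, adjusted p 0.00133 by edgeR). SOX2-ON lay below SOX2-OFF (log2 fold change -1.22, SE 0.22, adjusted p 0.000946 by edgeR) and below CEpiLC (-0.95, SE 0.22, adjusted p 0.0022 by edgeR). Within each pair the groups were not called apart: SOX2-OFF against CEpiLC gave 0.27 (adjusted p 0.300 by edgeR, but 0.61 and 0.00837 without CEpiLC replicate 2) and SOX2-ON against EpiLC 0.15 (adjusted p 0.580 by edgeR). Unlike Aldh1a2, Rdh10 was not highest in CEpiLC replicate 3.

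Dhrs3 (chr4:144892534-144928209), which works against Rdh10 by returning retinal to retinol, was near the limit of detection. It read 0.58 to 0.73 TPM in EpiLC and 0.32 to 0.56 in CEpiLC, while SOX2-OFF stood at 0.19 to 0.51 and SOX2-ON at 0.29 to 1.04, on 2 to 20 counts in a library. No CEpiLC value reached the lowest of EpiLC, but the log2 fold change of -0.61 (SE 0.48) was not called (adjusted p 0.332 by edgeR), and a difference of that size was not detectable at this depth. With all libraries Dhrs3 was not called in any of the 6 comparisons. Without SOX2-ON replicate 1, which read 0.29 TPM, it was called higher in SOX2-ON than in CEpiLC (1.20, adjusted p 0.03 by edgeR, against 0.83 and 0.145 with it) and than in SOX2-OFF (1.3, adjusted p 0.0474 by edgeR, against 0.93 and 0.17).

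Cyp26a1 (chr19:37697738-37701536) is the main clearing enzyme of the early embryo and is known as a gene that retinoic acid itself induces, as is Rarb. Both promoters hold the element through which RARs are known to act on them, a direct repeat of half-sites with 5 bases between, and are shown for that reason. They are the RefSeq promoters of GRCm38.p6, 250 bases before to 50 after a start site, on the strand of the gene, with the half-sites in capitals (chr19:37697558-37697857, forward strand, and chr14:16575427-16575726, reverse strand).
Cyp26a1: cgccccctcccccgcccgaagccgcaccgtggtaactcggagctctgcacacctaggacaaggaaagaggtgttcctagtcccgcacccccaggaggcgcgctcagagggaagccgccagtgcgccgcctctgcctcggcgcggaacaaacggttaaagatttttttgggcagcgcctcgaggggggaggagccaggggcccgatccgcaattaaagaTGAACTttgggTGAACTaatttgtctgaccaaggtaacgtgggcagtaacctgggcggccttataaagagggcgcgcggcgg
Rarb: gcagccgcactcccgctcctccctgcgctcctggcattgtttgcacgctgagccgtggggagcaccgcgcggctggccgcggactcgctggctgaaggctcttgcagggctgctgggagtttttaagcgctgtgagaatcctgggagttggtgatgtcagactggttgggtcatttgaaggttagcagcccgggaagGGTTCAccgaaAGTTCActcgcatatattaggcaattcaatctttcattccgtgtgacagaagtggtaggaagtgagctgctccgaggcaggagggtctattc
A half-site was taken as AGGTCA or as any of its variants GGGTCA, or AGTTCA, or else GGTTCA, and 2 half-sites had to face the same way with 5 bases between, on either strand. Promoters were listed for 8 of the 10 genes (14 promoters), all but Crabp2 and Rdh10. The repeat was found in 2 of these 14, at -53 to -37 from the start site in Rarb and, on the opposite strand, at -32 to -16 in Cyp26a1, and in 32 of all 32851 promoters (0.0974%). Repeats with 2 or 1 bases between, present in 0.268% and 0.222% of all promoters, were in 0 of the 14. The TCF/LEF motif (CTTTGAT or CTTTGAA), in 8.65% of all promoters, was found in 1 site that 2 overlapping Dhrs3 promoters share, and the SOX motif (CATTGTT), in 3.78%, in Rarb. Such a match is a run of letters and does not show that a protein binds there.

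These 2 genes stood at unlike levels. Rarb had too few counts to pass the filter, so the main model does not compare how they moved. Cyp26a1 read 12, 13.1 and 3.68 TPM in EpiLC and 1.01, 2.45 and 10.7 in CEpiLC, while SOX2-OFF stood at 27.7, 29.8 and 54.0 and SOX2-ON at 0.51, 0.41 and 1.18. All SOX2-OFF values lay above all values of the other 3 groups. Against CEpiLC the log2 fold change was 3.22 (9.32-fold, SE 0.65, adjusted p 0.00111 by edgeR). It was 4.52 without CEpiLC replicate 3 (adjusted p 3.22e-05 by edgeR) and 2.62, also called, without CEpiLC replicate 1. SOX2-OFF exceeded EpiLC by 1.94 (SE 0.58, adjusted p 0.0104 by edgeR). Within the SOX2 TetON line, Cyp26a1 was 54.8-fold lower in SOX2-ON than in SOX2-OFF (log2 fold change -5.78, SE 0.80, adjusted p 0.000155 by edgeR), the widest difference that any of the 9 tested genes showed in that comparison. SOX2-ON was also lower than EpiLC (-3.84, SE 0.84, adjusted p 0.00152 by edgeR).

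In the wild-type groups the Cyp26a1 values overlapped, because CEpiLC replicate 3 read 10.7 TPM and EpiLC replicate 3 read 3.68. CEpiLC against EpiLC was not called (-1.28, SE 0.66, adjusted p 0.137 by edgeR), but without CEpiLC replicate 3 it was called lower (-2.59, SE 0.56, adjusted p 0.00323 by edgeR), as it was by limma-voom (-2.02, adjusted p 0.0338). SOX2-ON against CEpiLC was called (-2.56, SE 0.94, adjusted p 0.0328 by edgeR), although the highest SOX2-ON value (1.18 TPM) lay above the lowest CEpiLC value (1.01). That call was lost without CEpiLC replicate 3 (-1.26, adjusted p 0.2 by edgeR), without SOX2-ON replicate 1 (-2.38, adjusted p 0.0903 by edgeR) or replicate 2 (-2.28, adjusted p 0.0951 by edgeR), and by limma-voom (-1.80, adjusted p 0.236). In this comparison the adjusted p ran from 0.00372 to 0.236 over 16 alternatives. Markers of early streak and anterior mesendoderm (7 genes) were, like Cyp26a1, highest in SOX2-OFF, summing to 205 to 328 TPM. They summed to 30.2 to 121 TPM in CEpiLC, 18.0 to 37.6 in SOX2-ON and 2.91 to 3.35 in EpiLC, where Cyp26a1 was nonetheless at 3.68 to 13.1 TPM. Mixl1 was the largest part in SOX2-OFF (160 TPM on average), while Cer1 averaged 0.0667 TPM there. Sox17 averaged 14.4 TPM in SOX2-OFF and 10.3 in SOX2-ON, where Cyp26a1 was low. The part of early streak and mesendoderm cells in the Cyp26a1 level was not tested. The genes most like Cyp26a1 over the 12 libraries were Rnpep (r 0.960), Clu (r 0.945) and Gas1 (r 0.932). Such an r takes no account of the size of a difference. Rnpep averaged 68 TPM in SOX2-OFF and 48.3 in SOX2-ON, and Clu 28.6 and 16. Gas1 read 16.6 to 24.5 TPM in SOX2-OFF and 2.24 to 2.90 in SOX2-ON.

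Cyp26b1 (chr6:84571414-84593908), the other clearing enzyme listed, was at or below 0.68 TPM in every library, on 0 to 28 counts. It was called in SOX2-ON against EpiLC (log2 fold change 2.36, SE 0.81, adjusted p 0.0233 by edgeR), on 10, 5 and 28 counts against 4, 0 and 4, with values of 0.22, 0.12 and 0.68 TPM against 0.08, 0 and 0.12. The groups touched, since SOX2-ON replicate 2 and EpiLC replicate 3 both read 0.12 TPM. The call was lost without SOX2-ON replicate 3 (1.41, adjusted p 0.164 by edgeR) and without EpiLC replicate 2 (1.73, adjusted p 0.0843 by edgeR). Genes of chromosome 6 as a whole stood higher in the SOX2 TetON line, by a median of 0.56 on the log2 scale in that comparison, and with this shift removed Cyp26b1 was not called (1.81, adjusted p 0.0813 by edgeR). In CEpiLC against EpiLC Cyp26b1 was not called with all libraries (2.00, SE 0.84, adjusted p 0.0708 by edgeR) but passed once CEpiLC replicate 3 was left out (2.28, adjusted p 0.0433 by edgeR).

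Of the binding proteins, Crabp2 (chr3:87948693-87953372), which hands retinoic acid to RARs in the nucleus, was high in wild-type cells and low in the SOX2 TetON line. It read 261, 263 and 217 TPM in EpiLC and 205, 225 and 271 TPM in CEpiLC, ranges that overlap (log2 fold change -0.08, SE 0.13, adjusted p 0.653 by edgeR). SOX2-OFF libraries had 71.7, 70.3 and 60.3 TPM, and those of SOX2-ON 15.3, 21.4 and 14.2 TPM, so the 3 levels did not overlap. SOX2-OFF was 3.38-fold below CEpiLC (log2 fold change -1.76, SE 0.14, adjusted p 6.68e-07 by edgeR). SOX2-ON was 4.15-fold below SOX2-OFF (-2.05, SE 0.16, adjusted p 1.73e-06 by edgeR) and 14-fold below CEpiLC (-3.81, SE 0.16, adjusted p 4.09e-09 by edgeR). Crabp2 had the lowest adjusted p of the 9 genes in both comparisons with SOX2-ON just given. It stayed on the same side of the threshold in all alternatives of all 6 comparisons. Both TetON groups thus lay below both wild-type groups, while Sox2 RNA was high in EpiLC and SOX2-ON and low in CEpiLC and SOX2-OFF. How much of the difference from wild type belongs to the line and how much to SOX2 cannot be told apart. The genes most like it over the 12 libraries were Spop (r 0.991), Chrnb4 (r 0.987) and Car14 (r 0.984), and Car14, a carbonic anhydrase, read 62.8 to 69.9 TPM in EpiLC and 42.1 to 50.4 in CEpiLC, while SOX2-OFF stood at 13.4 to 17.9 and SOX2-ON at 1.73 to 3.59.

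Crabp1 (chr9:54764748-54773110), its cytoplasmic relative, varied less between groups. It read 20.1, 28.2 and 22.6 TPM in EpiLC and 25.2, 26.5 and 87.4 in CEpiLC, while SOX2-OFF stood at 10.8, 12.8 and 20.1 and SOX2-ON at 20.01, 18.9 and 25.4. CEpiLC replicate 3 stood apart here too, and the other CEpiLC libraries lay within the range of EpiLC. Against EpiLC, CEpiLC was not called (0.94, SE 0.41, adjusted p 0.0837 by edgeR, and 0.12 without CEpiLC replicate 3, adjusted p 0.721 by edgeR), although a call came when CEpiLC replicate 1 (1.24, adjusted p 0.0271 by edgeR) or replicate 2 (1.23, adjusted p 0.0313 by edgeR) was left out. SOX2-OFF was lower than CEpiLC, with no overlap (-1.63, SE 0.44, adjusted p 0.0075 by edgeR, and -0.81 without CEpiLC replicate 3, adjusted p 0.0145 by edgeR). SOX2-ON against CEpiLC was called with all libraries (-1.10, SE 0.42, adjusted p 0.0367 by edgeR) but not without CEpiLC replicate 3 (-0.28, adjusted p 0.324 by edgeR), without any 1 of the SOX2-ON libraries (edgeR, adjusted p 0.0525 to 0.1), in the 6 libraries alone (adjusted p 0.0802 by edgeR) or by limma-voom (adjusted p 0.150). Crabp1 was not called in the other 3 comparisons.

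Crabp1 and Crabp2 did not differ alike, and the makeup of the binding proteins differed between groups. Their summed level was 271 ± 27.2 TPM in EpiLC and 280 ± 69.2 in CEpiLC, while SOX2-OFF stood at 82.0 ± 1.43 and SOX2-ON at 38.4 ± 2.67 (SD, n = 3). Crabp1 held 7.16, 9.67 and 9.43% of it in EpiLC and 11, 10.5 and 24.4% in CEpiLC. Its share was 13.1, 15.4 and 25.0% among the SOX2-OFF libraries and 56.6, 47.0 and 64.2% among those of SOX2-ON, the group in which it was on average the larger part (55.9 ± 8.62%).

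**Figure D4:**
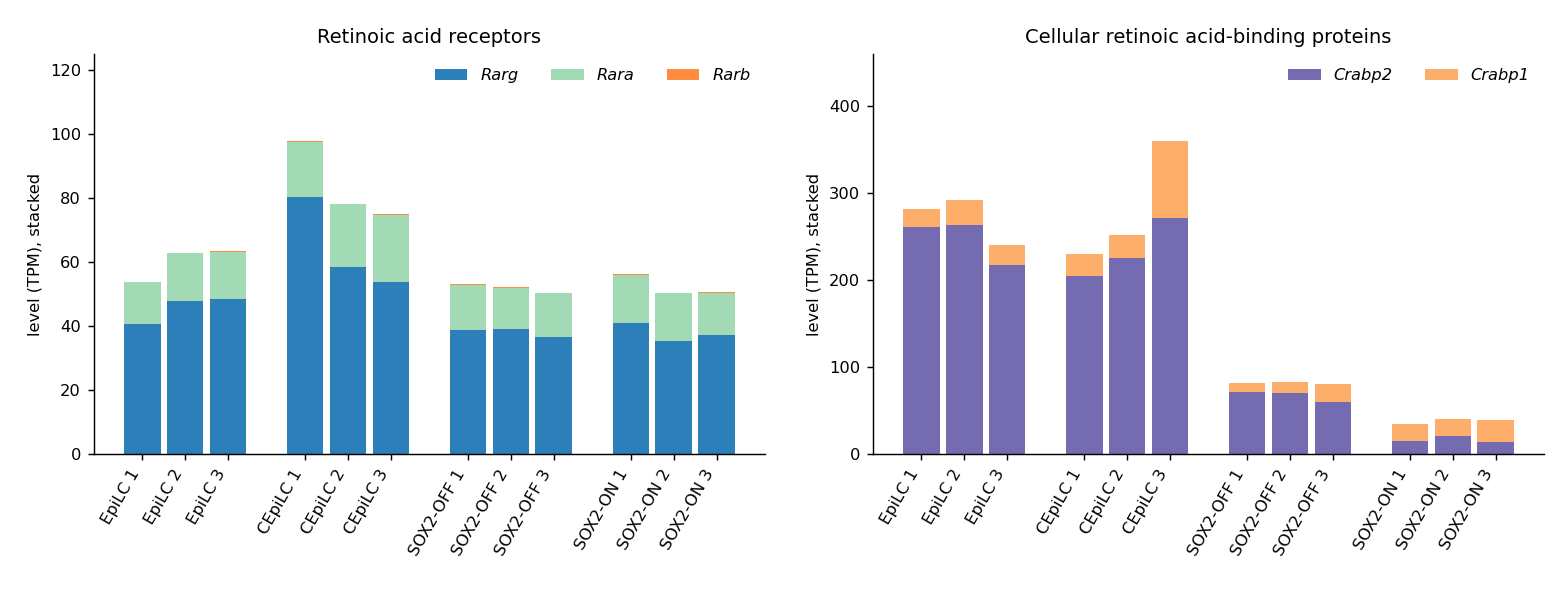
Stacked level in TPM (vertical axes, from 0) of the 3 receptors on the left and the 2 binding proteins on the right, 1 bar for each of the 12 libraries. Rarg is the larger part of every receptor bar. Crabp2 is most of the bars of EpiLC, CEpiLC and SOX2-OFF, and Crabp1 of those of SOX2-ON replicates 1 and 3.

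The receptors kept nearly the same proportions while their level differed. Rarg (chr15:102234938-102257522) held 76.0 ± 0.297% of the summed RAR level in EpiLC and 76.3 ± 5.30% in CEpiLC, while SOX2-OFF stood at 73.5 ± 1.40% and SOX2-ON at 72.1 ± 1.64% (SD, n = 3). Rara held 23.6 to 27.3% on average, and Rarb at most 0.905% in any library. The sum was 60.1 ± 5.51 TPM in EpiLC and 83.7 ± 12.3 in CEpiLC, and 52.0 ± 1.33 and 52.6 ± 3.32 in SOX2-OFF and SOX2-ON. On the CPM scale, which takes no account of length, Rarg's share was 68.6 to 73.2% on average.

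Rarg read 40.7, 47.8 and 48.5 TPM in EpiLC and 80.4, 58.5 and 54.0 in CEpiLC. The CEpiLC values lay above those of EpiLC, with replicate 1 and not replicate 3 the highest, and the rise was 1.42-fold (log2 fold change 0.50, SE 0.12, adjusted p 0.0052 by edgeR). In SOX2-OFF it read 38.8, 39.3 and 36.6 TPM and in SOX2-ON 41.0, 35.5 and 37.3 TPM. Both lay below every CEpiLC value, by -0.73 (SE 0.12, adjusted p 0.000305 by edgeR) and -0.81 (SE 0.12, adjusted p 0.000105 by edgeR), and they did not differ from each other at the threshold (-0.07, adjusted p 0.706 by edgeR). Rarg in SOX2-ON was called lower than in EpiLC at the edge of the threshold (-0.30, SE 0.12, adjusted p 0.0492 by edgeR). It was not called there in 7 of 16 alternatives, among them without EpiLC replicate 2 (-0.27, adjusted p 0.133 by edgeR) or 3 (-0.27, adjusted p 0.124 by edgeR) and without SOX2-ON replicate 2 (-0.25, adjusted p 0.149 by edgeR) or 3 (-0.28, adjusted p 0.116 by edgeR).

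Rara (chr11:98927800-98974942) read 13.1, 15.2 and 14.8 TPM in EpiLC and 17.3, 19.7 and 20.9 in CEpiLC, a rise of 1.35-fold with no overlap (log2 fold change 0.43, SE 0.10, adjusted p 0.00362 by edgeR). It read 14.3, 12.6 and 13.8 TPM in SOX2-OFF, against 15.2, 14.8 and 13.1 in SOX2-ON, all below CEpiLC (-0.49, SE 0.10, adjusted p 0.00124 by edgeR, and -0.46, SE 0.10, adjusted p 0.00152 by edgeR). Genes of chromosome 11 as a whole stood lower in TetON than in wild-type cells, by a median of -0.55 on the log2 scale in SOX2-OFF against CEpiLC and -0.56 in SOX2-ON against CEpiLC. Relative to that shift Rara did not differ at the threshold (0.06, adjusted p 0.675 by edgeR, and 0.10, adjusted p 0.411 by edgeR), and against EpiLC it was then higher in SOX2-OFF (0.48, adjusted p 0.00124 by edgeR) and in SOX2-ON (0.53, adjusted p 0.000643 by edgeR), where without the correction it was not called (-0.06 and -0.03). The rise from EpiLC to CEpiLC and the comparison within the SOX2 TetON line (0.03, adjusted p 0.848 by edgeR) involve no such shift, the median of chromosome 11 differing there by 0.0051 and -0.014. The number of copies of chromosome 11 in the line was not measured here.

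Rarb (chr14:16430839-17082331), whose promoter is shown above, was nearly silent. It read 0, 0.04 and 0.22 TPM in EpiLC and 0.09, 0.14 and 0.12 in CEpiLC, while SOX2-OFF stood at 0.13, 0.42 and 0.13 and SOX2-ON at 0.25, 0.22 and 0.46, on at most 12 counts. The SOX2-ON values lay above those of CEpiLC, overlapped SOX2-OFF and met EpiLC at 0.22 TPM. With no filter on low counts, Rarb was called in SOX2-ON against EpiLC (log2 fold change 2.13, SE 0.81, adjusted p 0.0399 by edgeR) on 7, 5 and 12 counts against 0, 1 and 4, and in none of the other 5 comparisons. At these counts smaller differences were not detectable. In the pair of genes with the direct repeat, Cyp26a1 was thus highest in SOX2-OFF, at up to 54.0 TPM, while Rarb stayed at or below 0.42 TPM there.

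The other genes of the pathway were described through a list of 51 (35 tested), of dehydrogenases, Cyp26c1, retinol carriers and stores, other intracellular carriers, RXR receptors and coregulators. From EpiLC to CEpiLC 11 of the 35 were called higher and 3 lower (median log2 fold change 0.05, against 0.01 over all genes tested), where 22.1% of all genes were called higher and 20.1% lower. SOX2-OFF against CEpiLC gave 9 and 9 (23.6% and 24.9% of all genes), SOX2-ON against CEpiLC 11 and 12 (27.9% and 28.6%), and SOX2-ON against SOX2-OFF 8 and 4 (14.8% and 14.1%), with medians of 0.03, -0.05 and -0.01. Stra6, the membrane receptor that takes up retinol, read 1.88, 1.05 and 0.92 TPM in EpiLC and 25.3, 11.7 and 5.82 in CEpiLC, while SOX2-OFF stood at 3.27, 3.83 and 3.01 and SOX2-ON at 0.88, 0.50 and 1.25. It was 11.4-fold higher in CEpiLC than in EpiLC (log2 fold change 3.52, SE 0.48, adjusted p 7.35e-05 by edgeR) and lower in SOX2-ON than in SOX2-OFF (-1.96, SE 0.53, adjusted p 0.0148 by edgeR). The 3 CEpiLC libraries stood in the opposite order to that of Aldh1a2, with replicate 1 highest for Stra6 and lowest for Aldh1a2.

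A few genes of the list differed within the SOX2 TetON line in the other direction. Aldh1a3, a relative of Aldh1a2 that makes the same product, read 0.56, 0.44 and 1.13 TPM in SOX2-ON and 0.14, 0.13 and 0.21 in SOX2-OFF (2.15, SE 0.54, adjusted p 0.00953 by edgeR). Adh7, an alcohol dehydrogenase that can oxidise retinol, read 1.55, 0.97 and 4.14 TPM against 0.06, 0.21 and 0 (4.25, SE 0.79, adjusted p 0.00128 by edgeR). Rbp7, a cellular retinol-binding protein, read 4.45 ± 1.71 TPM against 2.02 ± 0.576 (SD, n = 3; 1.07, SE 0.36, adjusted p 0.0406 by edgeR), and Kat2b, a histone acetyltransferase, 21.9 ± 2.69 against 9.10 ± 0.928 (1.21, SE 0.16, adjusted p 9.65e-05 by edgeR). Aldh1a3 and Adh7 were higher in SOX2-ON where Rdh10 was lower, though at 4.14 TPM or less in every library. Bco2, a carotenoid-cleaving enzyme, rose from 0.78 ± 0.291 TPM in EpiLC to 2.42 ± 0.921 in CEpiLC (1.66, SE 0.38, adjusted p 0.00329 by edgeR), and Nrip1, a corepressor that retinoic acid induces, from 3.37 ± 0.300 to 8.76 ± 1.03 (1.38, SE 0.12, adjusted p 1.29e-06 by edgeR).

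Genes known to respond to retinoic acid in embryos or ESCs formed a list of 32 (26 tested), of which 4, Stra6 and Nrip1 among them, stand on the pathway list as well. Many of them, the Hox genes and Cdx1 above all, are also known to respond to WNT, so the list does not single out retinoic acid. From EpiLC to CEpiLC 20 of the 26 were called higher and 3 lower, against 22.1% and 20.1% of all genes, with a median log2 fold change of 2.96 against 0.01 over all genes. Hoxb1, an early anterior Hox gene with a known retinoic acid response element, read 0, 0.05 and 0.15 TPM in EpiLC and 84.2, 119 and 283 in CEpiLC (adjusted p 3.03e-07 by edgeR). Cdx1, at 0 in each EpiLC library, read 65.7, 40 and 77.3 TPM in CEpiLC (adjusted p 6.41e-08 by edgeR). Among the genes called lower were Pax6, a neural gene that fell from 1.59 ± 0.770 to 0.0633 ± 0.0153 TPM (-4.58, SE 0.46, adjusted p 6e-06 by edgeR), and Tgm2, a transglutaminase that fell from 4 ± 0.503 to 1.29 ± 0.227 TPM (-1.65, SE 0.25, adjusted p 0.000178 by edgeR). Meis1 was among the genes not called (0.45, SE 0.45, adjusted p 0.451 by edgeR).

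Against EpiLC, 19 of the 26 were called higher in SOX2-OFF and 20 in SOX2-ON, with 4 lower in each (medians 3.02 and 3.25). The shares of all genes called higher and lower were 31.5% and 30.6% for SOX2-OFF, against 30.7% and 29.1% for SOX2-ON. In SOX2-OFF against CEpiLC 6 of the 26 were called higher and 12 lower (median -0.52), against 23.6% and 24.9% of all genes. In SOX2-ON against CEpiLC the counts were 8 and 14 (median -1.04), against 27.9% and 28.6%, and within the line 6 and 10 (median -0.58), against 14.8% and 14.1%. Hoxb1 read 75.1, 75.6 and 128 TPM in SOX2-OFF, against 1.60, 1.78 and 2.45 in SOX2-ON (-5.63, SE 0.51, adjusted p 5.35e-06 by edgeR). It shared with Cyp26a1 a low level in SOX2-ON and a highest SOX2-OFF value in replicate 3, but unlike Cyp26a1 it was at 0.15 TPM or less in EpiLC. Zfp703 went with Cyp26a1 in being highest in SOX2-OFF, at 74.0, 62.1 and 94.3 TPM against 22.4, 20.1 and 32.2 in CEpiLC (1.65, SE 0.21, adjusted p 2.56e-05 by edgeR). It lies on chromosome 8, whose genes stood higher by a median of 0.57 in that comparison, and Hoxb1 lies on chromosome 11, so values against wild type carry those shifts. Among the genes higher in SOX2-ON than in SOX2-OFF were Nedd9 (18.6 ± 2.05 against 5.60 ± 0.565 TPM, 1.68, SE 0.16, adjusted p 6.95e-06 by edgeR), Meis1 (3.07 ± 0.813 against 1.31 ± 0.189 TPM, 1.18, SE 0.34, adjusted p 0.0205 by edgeR) and Gbx2 (67.8 ± 11.7 against 25.5 ± 8.38 TPM, 1.38, SE 0.24, adjusted p 0.000946 by edgeR). The list therefore did not move as a block within the line, and its members were chosen on prior knowledge with earlier results of these data known.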

How the data were processed

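Polyadenylated RNA of 12 cultures was sequenced as strand-specific single-end reads of 76 bp. The authors trimmed reads with cutadapt 1.16, aligned them with STAR 2.5.2a and quantified mm10 RefSeq genes with RSEM 1.3.0 (versions as in the submitters' processing notes). The deposited table holds expected counts for each gene and sample, of which 2.59 to 3.43% in a library were not whole, and TPM values as RSEM scaled them. TPM corrects for length and depth but depends on what else a library holds. The authors did not pool replicates.

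Expected counts were rounded. Genes passing filterByExpr (14196 of 24736) were tested with edgeR 4.0.16 in R 4.3.3 by quasi-likelihood, with TMM factors of 0.97 to 1.02, 1 model of 12 samples and no covariates. SE was derived from the F statistic. On counts simulated for CEpiLC against EpiLC over 14196 genes, the test recovered 185 of 200 changed genes with 13 others, and a simulated comparison without change, drawn for SOX2-ON against SOX2-OFF, gave 0 calls. These counts were drawn with the spread that edgeR itself fitted as a trend over genes. They held no outlying library, so they do not show how the test performs for a gene such as Aldh1a2 in CEpiLC. No pair of replicates agreed within sampling noise, so none was treated as a library deposited more than once, which does not show that cultures were independent. The p-values measure the spread between cultures that the labels call biological replicates. Reads carry no molecular identifiers.

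EpiLC and CEpiLC libraries with the same number had deviations that correlated with r of 0.12, 0.132 and 0.103, so these numbers were taken to pair, from the values alone. The main model does not use that pairing, which enters only in the replicate block below. In each of the other 5 comparisons the lowest r was under 0.1. However, r reached 0.179 in SOX2-OFF against CEpiLC and 0.201 in SOX2-ON against CEpiLC. The numbers there were not taken to pair, which these values do not exclude. Alternatives were RLE or library-size scaling, 2 other filters, DESeq2 1.42.0, limma-voom (limma 3.58.1), the 6 samples compared, a replicate block, a threshold of 0.01, removal of each chromosome's median shift, and each library left out. The shift was computed from genes averaging 4 log2 CPM or more, and 97.7% of tested genes had a RefSeq position in GRCm38.p6.

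The genes and lists were chosen with earlier results of these data known. All 10 genes were described. Listed genes were named with values where they were called with an absolute log2 fold change over 1 in CEpiLC against EpiLC or SOX2-ON against SOX2-OFF, and the 3 most similar genes where a group mean ranged most. Some listed genes are not reported here. The comment on opposite orders of Stra6 and Aldh1a2 was made after the values were seen.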

Additional observations from a re-analysis of the deposited data

How the results depend on the processing

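Over 16 alternatives for each comparison (15 for Cyp26b1 and Dhrs3), 809 values of single genes and shares kept their direction and side of the threshold, 26 lost a call, 16 gained a call, 15 changed sign and 6 shares moved by more than their SD, and 93 of 96 counts of called genes stayed within 1.5 times the reported count. The count in SOX2-ON against EpiLC, 4 of 9, came to 2 at a threshold of 0.01 and ran from 2 to 4 when a library was left out. It was 2 without EpiLC replicate 2 or SOX2-ON replicate 3, where Cyp26b1 and Rarg were lost. In the other comparisons, leaving out a library gave 4 to 6 called genes from EpiLC to CEpiLC, 6 to 7 in SOX2-OFF against CEpiLC, 5 to 7 in SOX2-ON against CEpiLC and 3 to 4 in SOX2-ON against SOX2-OFF.

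The replicate block left the 4 calls of CEpiLC against EpiLC as they were. Elsewhere, where numbers were not taken to pair, the block changed a call for Aldh1a2 alone, which was then called in SOX2-ON against SOX2-OFF (-1.99, adjusted p 0.0127) and SOX2-ON against EpiLC (2.01, adjusted p 0.0478).

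Signs that turned were those of values not called, except for Rara, and the cause was not tested, other than for the chromosome shift, which that alternative takes out. Removing the shift gave Rara 0.057 in SOX2-OFF against CEpiLC, 0.10 in SOX2-ON against CEpiLC, 0.48 in SOX2-OFF against EpiLC and 0.53 in SOX2-ON against EpiLC, and Cyp26b1 -0.19 in SOX2-ON against CEpiLC. Leaving out a library turned the sign for 7 pairs of gene and comparison, in some of them for several libraries, with these ranges. Dhrs3 ran from -0.32 to 0.17 in SOX2-OFF against CEpiLC (0.14 without SOX2-OFF replicate 3) and from -0.19 to 0.59 in SOX2-ON against EpiLC. Cyp26b1 ran from -0.59 to 0.90 in SOX2-ON against CEpiLC and from -0.0015 to 1.35 in SOX2-ON against SOX2-OFF, lowest without SOX2-ON replicate 3. Rdh10 ran from -0.026 to 0.25 in SOX2-ON against EpiLC. Rara ran from -0.027 to 0.097 in SOX2-ON against SOX2-OFF and from -0.086 to 0.038 in SOX2-ON against EpiLC. Calls for Cyp26b1, Dhrs3 and Rarb are limited by counts of at most 28 in a library.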
